A study of Homo sapiens with 4 samples.

Results

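The integrated stress response regulators are 10 genes that carry a cell's answer to blocked or unbalanced protein synthesis: the kinase gene EIF2AK3, the transcription factor genes ATF4, ATF5, ATF3, DDIT3, CEBPB and CEBPG, and the feedback and effector genes TRIB3, CHAC1 and PPP1R15A. They were chosen by symbol, with earlier results of these data known, and all 10 were found among the 26255 gene symbols of the deposited expression table. Poly(A) RNA was sequenced from TOV21G cells, a line from a human ovarian clear cell carcinoma. The groups were As2O3 (arsenic trioxide, which binds thiols and is given in acute promyelocytic leukaemia) at 1 µM for 48 h, GSK458 (omipalisib, an inhibitor of PI3K and mTOR) at 0.1 µM for 48 h, both drugs at the same doses for 48 h, and a control without drug whose time in culture is not stated in the labels. Each group was 1 library from 1 cell line, so no value below has a replicate error, no test was possible, and every difference describes these libraries.

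In the integrated stress response, kinases that sense different stresses phosphorylate the α subunit of the initiation factor eIF2. General translation then falls, while ATF4 is translated better because of short upstream reading frames in its message, so the level of ATF4 mRNA does not report how much ATF4 protein is made. ATF4 pairs with C/EBP proteins at composite elements near genes for amino acid supply and stress, and it raises ATF3, DDIT3 (the factor CHOP), TRIB3 and CHAC1. Arsenicals are well known inducers of this response, and mTOR complex 1 is known to promote ATF4 translation.

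Levels are FPKM as deposited (fragments per kilobase and per 1000000 mapped), and are therefore per length. Sums of FPKM lay between 543975 and 588892 in the 4 libraries. The steps between low values put the depth of the treated libraries at 85.8% to 108.7% of the control's, while absolute depth is unknown. Differences are on the log2(FPKM + 1) scale, which understates those of low genes, and cover the 12260 genes whose mean over the libraries reached 1 FPKM. All 10 regulators passed that filter, with means of 6.52 FPKM (ATF3) to 429 FPKM (ATF4). The labelled cell type was checked on clear cell and epithelial markers, of which PAX8, KRT8 and KRT18 were at 83.6 FPKM or more in all libraries. NAPSA, EPCAM and CDH1 had means under 1 FPKM. Of 16 fibroblast, immune and endothelial markers 6 were listed at 0 in all libraries, PTPRC, CD3E and COL3A1 among them, and 13 stayed under 1 FPKM. The exceptions were COL1A1, COL1A2 and CD68, and the summed immune markers, nearly all CD68, stood at 4.21 FPKM with As2O3, 1.27 with GSK458, 2.89 with both drugs and 1.05 in the control. The part of these shifts in the results below was not tested.

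Promoter sequence is shown because several regulators moved together and because the composite element that binds ATF4 with C/EBP proteins has a short core. RefSeq windows from 250 bases before to 50 after a start (GRCh38.p14, while the submitters' processing notes name hg19 for the expression values) were found for 10 of 10 regulators, 19 windows in all. The core TGATGNAA was searched on both strands and occurred in 3 of these 19, those of ATF3, CHAC1 and CEBPG, against 3.62% of all 35116 windows. The cAMP response element TGACGTCA, which ATF-family factors bind, occurred in 1, that of PPP1R15A, against 1.85% of all windows. No 2 of the matched sites overlap. A match describes these letters and not binding, and ATF3 and CEBPG each have a second listed start whose window holds no match. Capitals mark the match in the sequences below, which are read on the gene's strand, all 4 of them the plus strand. ATF3 (chr1:212565157-212565333) has the match 191 bases before the start, and CEBPG (chr19:33373896-33374112) has it 42 bases before. PPP1R15A (chr19:48872171-48872391) has it 58 bases before. CHAC1 (chr15:40953252-40953279) carries the core on the opposite strand, 209 bases before the start. The first 3 are the parts of the upstream window that hold no exon of GENCODE release 29. For CHAC1 only the site is shown, and it overlaps a CHAC1 exon of that release.
ATF3: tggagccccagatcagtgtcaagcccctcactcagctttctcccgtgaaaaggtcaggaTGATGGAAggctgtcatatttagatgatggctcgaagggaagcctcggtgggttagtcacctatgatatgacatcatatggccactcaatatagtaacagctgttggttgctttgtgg
CEBPG: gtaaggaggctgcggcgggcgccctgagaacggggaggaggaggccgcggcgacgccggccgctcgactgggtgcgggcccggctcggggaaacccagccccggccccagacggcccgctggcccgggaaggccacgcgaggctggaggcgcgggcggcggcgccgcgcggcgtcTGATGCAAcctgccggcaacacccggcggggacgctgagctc
PPP1R15A: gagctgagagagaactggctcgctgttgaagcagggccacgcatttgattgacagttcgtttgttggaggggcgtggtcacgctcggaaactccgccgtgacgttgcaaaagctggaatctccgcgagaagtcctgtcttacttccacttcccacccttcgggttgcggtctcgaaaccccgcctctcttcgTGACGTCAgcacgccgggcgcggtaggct
CHAC1: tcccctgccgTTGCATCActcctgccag

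EIF2AK3 encodes PERK, the eIF2α kinase of the endoplasmic reticulum. It stood at 19.1 FPKM with As2O3, 11.5 with GSK458, 11.3 with both drugs and 12.8 in the control. The As2O3 library was 1.49-fold above the control and both libraries with GSK458 lay slightly below it.

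ATF4, the central factor, was the most abundant regulator in every library. It stood at 534 FPKM with As2O3, 485 with GSK458, 443 with both drugs and 254 in the control, which made it the 151st, 153rd, 160th and 280th most abundant symbol. All treated libraries thus lay above the control, by 2.1-fold, 1.91-fold and 1.74-fold. GENCODE names 4 pseudogenes of ATF4, with which reads could be shared, so its level is uncertain. ATF5, a related factor that is also controlled through upstream reading frames, did not follow ATF4. Its levels were 7.32 FPKM with As2O3, 10.5 with GSK458, 13.0 with both drugs and 7.60 in the control, so it was the regulator with its highest value in the combination and its lowest with As2O3. Exons of ATF5 overlap those of NUP62 and IL4I1 on the opposite strand, and DDIT3 likewise overlaps MARS and MBD6. DDIT3 also overlaps a protein-coding gene on its own strand, AC022506.1, from which no strand setting would separate it. The strand setting of the authors' quantification is not given either, so these levels are uncertain. MARS stood at 98.8, 34.8, 37.3 and 60.2 FPKM in the same library order, MBD6 at 9.58, 12.4, 11.9 and 9.72 FPKM, and NUP62 at 33.1, 24.0, 23.3 and 31.5 FPKM.

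CEBPB and CEBPG encode the C/EBPβ and C/EBPγ partners of ATF4, and they parted in the combination. CEBPB stood at 29.4 FPKM with As2O3, 7.77 with GSK458, 20.4 with both drugs and 7.47 in the control. Both libraries that held As2O3 were above both that did not. CEBPG stood at 14.1, 7.06, 6.95 and 6.79 FPKM in this library order, so that the As2O3 library alone stood above the rest. The antisense CEBPB-AS1, which overlaps CEBPB, was at most 0.189 FPKM.

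ATF3 and DDIT3, factors downstream of ATF4, were far higher with As2O3 alone than in any other library. ATF3 stood at 17.1 FPKM with As2O3, 2.97 with GSK458, 4.70 with both drugs and 1.35 in the control. DDIT3, whose product CHOP is linked to death under lasting stress, stood at 72.7, 11.1, 13.7 and 9.26 FPKM. TRIB3, a pseudokinase that restrains ATF4 and CHOP, stood at 72.8, 14.5, 19.2 and 16.6 FPKM. CHAC1, an enzyme that degrades glutathione, stood at 23.9, 2.73, 4.25 and 4.18 FPKM. In these 4 genes the As2O3 library exceeded the next highest, the combination each time, by 3.63-fold (ATF3), 5.29-fold (DDIT3), 3.79-fold (TRIB3) and 5.61-fold (CHAC1).

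PPP1R15A encodes GADD34, which brings protein phosphatase 1 to eIF2α and so ends the response. Its levels were 31.9 FPKM with As2O3, 28.2 with GSK458, 31.5 with both drugs and 15.4 in the control. The 3 treated libraries lay close together, above the control, as they did for ATF4. Over all 10 regulators the As2O3 library was the highest for 9 and the control the lowest for 6. These shares were not computed over all genes, so the 2 counts do not set the regulators apart.

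**Figure D1:**
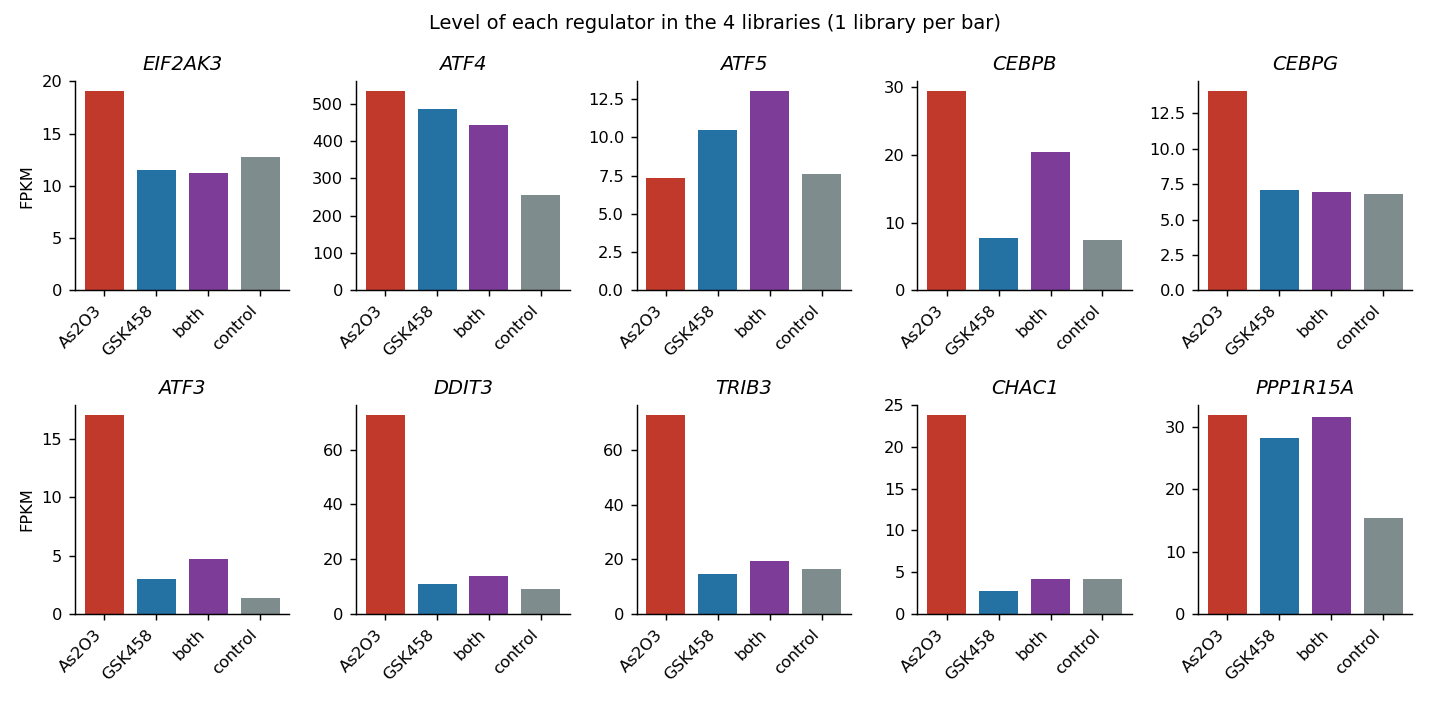
FPKM (vertical axis, from 0, its own scale in each panel) of each of the 10 regulators in the As2O3, GSK458, both-drugs and control libraries; each bar is 1 library, so there are no error bars. ATF4 and PPP1R15A stood above the control in all treated libraries, while ATF3, DDIT3, TRIB3 and CHAC1 stood out with As2O3 alone.

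As2O3 against the control showed how far these genes stood apart under arsenic alone. Of the 10 regulators 7 were at least 2-fold higher and 0 lower, where 2.07% of all 12260 genes were higher and 1.41% lower. Their median log2 difference was 1.46, against 0.01 over all genes. ATF3 (2.94) and DDIT3 (2.84) had the 18th and 20th highest differences of all genes, and CHAC1 (2.26), TRIB3 (2.07) and CEBPB (1.85) the 33rd, 40th and 52nd. ATF4 (1.07) and PPP1R15A (1.00) were at the 2-fold line, and both were short of it with libraries rescaled to equal sums (0.98 and 0.94), PPP1R15A also with upper-quartile scaling (0.96) or a pseudocount of 5 FPKM (0.86). CEBPG (0.95) and EIF2AK3 (0.54) were higher by less than 2-fold, and ATF5 was at −0.05. Immediate early genes, which can respond to handling too, were high in the same library. All 12 of those measured were higher, where 51.2% of all genes were, and 7 at least 2-fold, where 2.07% of all genes were. NR4A1 was at 2.72 and FOS at 2.31. The summed FPKM of the 15 immediate early genes in the table was 979.9 with As2O3 and 459.7 in the control. ATF3 is itself often counted among immediate early genes, and the part of handling in these differences was not tested. In bulk RNA a change in the share of cells that express a gene and a change per cell cannot be told apart.

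GSK458 against the control showed how the regulators stood with the PI3K and mTOR inhibitor alone. Inhibition of these kinases was not measured in these libraries. No regulator was 2-fold higher or lower (0 and 0 of 10), where 2.35% of all genes were higher and 3.87% lower, and the median was 0.14 against −0.01 over all genes. ATF4 (0.93), PPP1R15A (0.83) and ATF3 (0.76) had the largest differences, all higher, and ATF5 followed (0.42). In ATF3 the ratio of levels was 2.2, and its small difference on the log scale owes to the added 1 FPKM at a low level. CHAC1 (−0.48), TRIB3 (−0.18) and EIF2AK3 (−0.14) were lower, and DDIT3 (0.24), CEBPB and CEBPG (both 0.05) lay near the control.

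With both drugs, CEBPB (1.34) and ATF3 (1.28) were at least 2-fold above the control and no regulator was 2-fold below it, so 2 and 0 of 10, where 3.25% of all genes were higher and 4.31% lower. The median was 0.61 against −0.01 over all genes. PPP1R15A (0.99), ATF4 (0.80) and ATF5 (0.71) followed. DDIT3 (0.52), TRIB3 (0.20), CEBPG (0.03) and CHAC1 (0.02), of which 3 were at least 2-fold higher with As2O3 alone, were under 1.5-fold from the control. These comparisons share the control library, and the differences are given side by side for that reason.

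The combination was also set against As2O3 alone, which asked what GSK458 does to the arsenic response. DDIT3 (−2.32), CHAC1 (−2.24), TRIB3 (−1.87) and ATF3 (−1.66) were at least 2-fold lower with both drugs, 4 of 10, and 0 were 2-fold higher. Of all genes 4.27% were lower and 2.28% higher. DDIT3 and CHAC1 had the 48th and 59th lowest of the 12260 differences. CEBPG (−0.92), EIF2AK3 (−0.71), CEBPB (−0.51) and ATF4 (−0.27) were lower by less than 2-fold, PPP1R15A was at −0.017 and ATF5 at 0.75. The median was −0.82 against −0.02 over all genes. This comparison and that of As2O3 with the control use the same As2O3 library, so an unusually high value in that library would raise the one difference and lower the other.

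On the FPKM scale, the share of the As2O3 gain over the control that was still present with both drugs differed between the regulators. It was 97.6% for PPP1R15A, 67.3% for ATF4 and 59.0% for CEBPB. It was 21.3% for ATF3, 7.05% for DDIT3, 4.57% for TRIB3, 2.19% for CEBPG and 0.337% for CHAC1. For EIF2AK3 the combination was below the control, and ATF5 had no gain with As2O3.

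**Figure D2:**
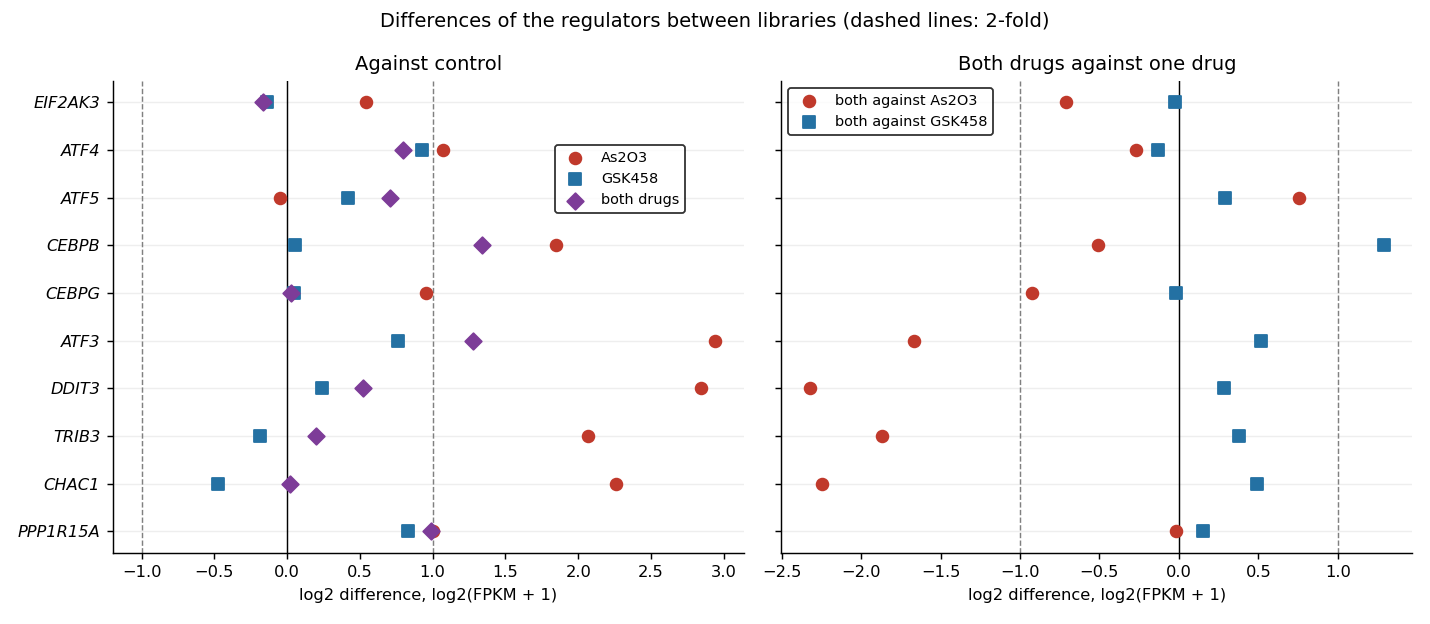
Log2 differences on the log2(FPKM + 1) scale (horizontal axis) for each regulator, 1 library against 1 library per point; dashed lines mark 2-fold. As2O3 alone placed 7 regulators beyond 2-fold above the control, and the combination placed DDIT3, CHAC1, TRIB3 and ATF3 beyond 2-fold below As2O3.

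A pair of libraries that shares none with As2O3 and the control is the combination against GSK458 alone, in which arsenic was added to cells under the inhibitor. CEBPB (1.29) was at least 2-fold higher, 1 of 10, and 0 were 2-fold lower, where 0.644% of all genes were higher and 0.318% lower. Its difference was the 38th highest of all genes. ATF3 (0.52), CHAC1 (0.49), TRIB3 (0.38), ATF5 (0.29), DDIT3 (0.28) and PPP1R15A (0.15) were higher by less than 2-fold. CEBPG (−0.019), EIF2AK3 (−0.027) and ATF4 (−0.13) were slightly lower, and with equal sums CEBPG (0.031) and EIF2AK3 (0.025) were on the other side of 0. The median was 0.29 against 0.0026 over all genes.

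Synergy is part of the series title, and the combination was therefore compared with the sum of the single-drug log2 differences. This compares mRNA levels only. Growth and survival of the cells are not measured in these libraries, so the departures do not bear on synergy in those. The combination lay below that sum for 9 of 10 regulators, where 49.6% of all genes lay above it. For 5 regulators the combination lay at least 2-fold below the sum, where 2.05% of all genes lay 2-fold below and 1.33% above. The departures were −2.56 for DDIT3, −2.42 for ATF3, −1.77 for CHAC1, −1.69 for TRIB3 and −1.20 for ATF4. In levels, DDIT3 was measured at 13.7 FPKM where the sum would give 86.0 FPKM, and ATF4 at 443 FPKM where it would give 1018 FPKM. CEBPG (−0.97), PPP1R15A (−0.85), EIF2AK3 (−0.57) and CEBPB (−0.56) departed by less, and ATF5 lay above the sum (0.33). All 4 libraries enter each departure with equal weight, so an unusual value in any of them, the control included, would move it. The As2O3 library was the highest for 9 of 10 regulators, and an unusually high value there would lower the departure.

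**Figure D3:**
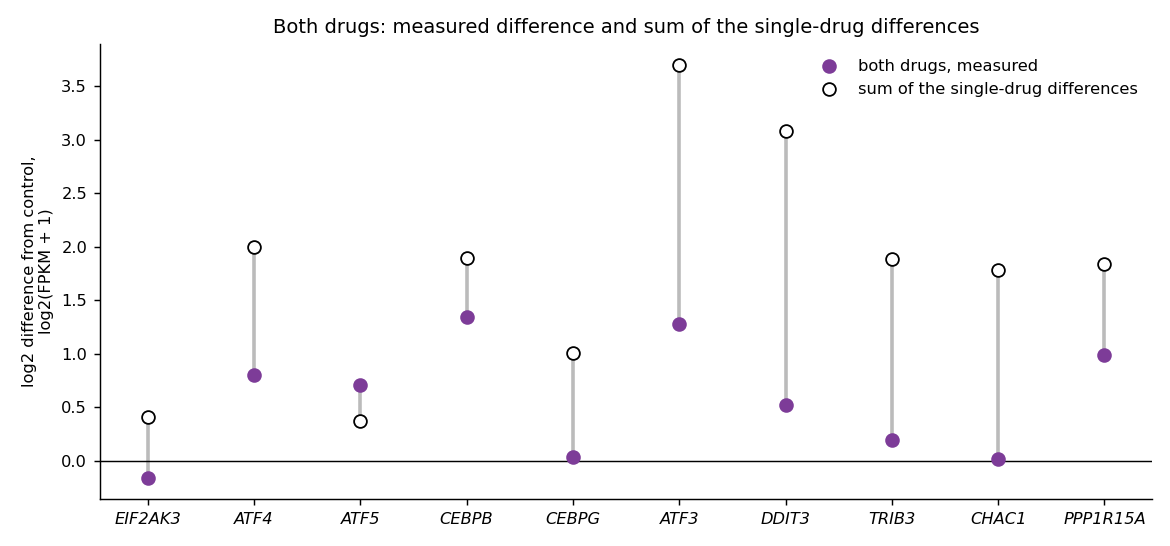
Difference from the control on the log2(FPKM + 1) scale (vertical axis) for each regulator: filled points are the combination as measured, open points the sum of the single-drug differences, each from single libraries. The filled point lies below the open one for 9 of 10 regulators, with a departure of −2.56 for DDIT3, and above it for ATF5. Of all genes 49.6% lay above the sum.

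The ratio of each regulator to ATF4 within a library needs no scaling between libraries. DDIT3 stood at 13.6% of the ATF4 level with As2O3, 2.29% with GSK458, 3.10% with both drugs and 3.64% in the control. TRIB3 stood at 13.6%, 2.99%, 4.33% and 6.54% in the same order, and CHAC1 at 4.46%, 0.562%, 0.959% and 1.64%. In 6 of the other 9 regulators (DDIT3, TRIB3, CHAC1, ATF5, CEBPG and EIF2AK3) the ratio was lower under GSK458, with or without As2O3, than in the control. ATF4, on which the ratio is based, was itself 1.91-fold and 1.74-fold above the control in these libraries. In FPKM DDIT3, ATF5 and CEBPG were above the control in both. A gene that rose by less than ATF4 has a lower ratio. At 1.5-fold, 1056 of all 12260 genes were higher with GSK458 and 1217 with both drugs. The share of all genes with a lower ratio was not computed, so the count of 6 does not set these regulators apart. PPP1R15A kept close to ATF4, at 5.97%, 5.81%, 7.11% and 6.05%.

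**Figure D4:**
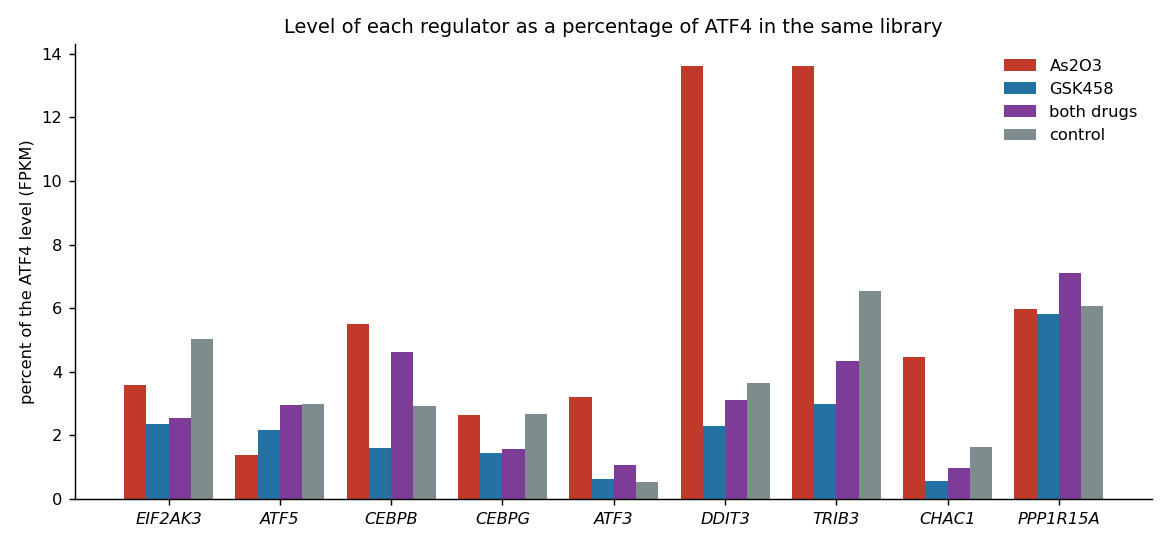
Level of the other 9 regulators as a percentage of ATF4 FPKM in the same library (vertical axis, from 0), with 1 bar per library in the order As2O3, GSK458, both drugs, control. DDIT3, TRIB3 and CHAC1 peak with As2O3. In both libraries with GSK458, where ATF4 was above the control, 6 of the 9 ratios lie below the control's. A gene that rose by less than ATF4 has a lower ratio, so this count does not set the regulators apart. PPP1R15A stays between 5.81% and 7.11%.

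Among the 9155 genes averaging 5 FPKM or more, profiles over the 4 libraries were compared by Euclidean distance between log2(FPKM + 1) values centred on their own mean. Nearest to ATF4 were SLC38A2, an amino acid transporter (distance 0.12), INPP1 (0.15), FOSL2 (0.17), DNAJB9, an ER co-chaperone (0.19), and C22orf23 (0.20). Of the other regulators PPP1R15A came closest, at 0.22, and CHAC1 was the farthest, at 1.94. Nearest to DDIT3 were CHAC1 (0.54), TRIB3 (0.55), FOS (0.57), ATF3 (0.62) and PHLDA2 (0.65), so that 3 of its 5 nearest genes were regulators. With 4 libraries these distances describe the profiles and carry no test.

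The kinases that feed the same step showed little movement. EIF2AK1 (HRI, the haem- and mitochondria-linked kinase) stood at 55.2 FPKM with As2O3, 47.0 with GSK458, 45.1 with both drugs and 48.6 in the control. EIF2AK2 (PKR, which senses double-stranded RNA) ranged from 11.99 to 14.6 FPKM and EIF2AK4 (GCN2, which senses uncharged tRNA) from 22.6 to 28.0 FPKM. Of these 3 kinases 0 were 2-fold apart in any of the 5 comparisons. Of all genes only 0.318% to 4.31% were 2-fold higher, or 2-fold lower, in a given comparison. A count of 0 among 3 or 5 genes therefore does not set them apart. Of 5 further genes tied to the kinases or their output, 0 were 2-fold apart either. They were KIAA0141 and OMA1 of the mitochondrial relay, GCN1, which activates GCN2, DNAJC3, an inhibitor of PKR and PERK, and QRICH1, a transcriptional regulator that acts after eIF2α phosphorylation. KIAA0141, the gene of the mitochondrial relay DELE1, stood at 5.79 FPKM with As2O3, 10.6 with GSK458, 10.6 with both drugs and 6.30 in the control. OMA1 ranged from 4.93 to 7.80 FPKM, GCN1 from 19.2 to 26.4, QRICH1 from 27.6 to 32.0 and DNAJC3 from 10.4 to 15.1.

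Of the 8 subunits of eIF2 and of its exchange factor eIF2B, 0 were 2-fold apart with As2O3, where EIF2S2 (0.79) and EIF2S3 (0.30) had the largest differences. Of all genes 2.07% were 2-fold higher with As2O3 and 1.41% lower, so a count of 0 does not set the subunits apart. EIF2B3, the γ subunit of eIF2B, was at least 2-fold lower with both drugs than with As2O3 alone (−1.08), at 5.69 FPKM against 13.2 FPKM, and with GSK458 than in the control (4.74 against 11.8 FPKM). Of all genes 4.27% were 2-fold lower in the former comparison and 3.87% in the latter. Of 4 genes of the eIF2α phosphatase, PPP1R15B, the constitutive targeting subunit, was at least 2-fold lower with both drugs than with As2O3 alone (−1.14). The catalytic subunits PPP1CA, PPP1CB and PPP1CC were less than 2-fold apart in that comparison.

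The list of 42 ATF4 target genes, of which 41 passed the filter, stood high with As2O3 alone. With As2O3 15 were at least 2-fold higher than in the control and 0 lower (median 0.77), where 2.07% and 1.41% of all genes were. Of the 41, 40 were above the control, where 51.2% of all genes were. With GSK458 2 were higher and 6 lower (median −0.33), where 2.35% and 3.87% of all genes were. With both drugs 4 were higher and 4 lower (median −0.26), where 3.25% and 4.31% of all genes were. Against As2O3 alone 17 were at least 2-fold lower with both drugs and 0 higher (median −0.92), where 4.27% and 2.28% of all genes were. The largest differences with As2O3 were those of GDF15, a secreted stress signal (3.05), SLC7A11, the cystine carrier (2.75), NUPR1, a stress-induced chromatin factor (2.26), and SLC7A5, the leucine carrier (2.13). GDF15 stood at 836 FPKM with As2O3, 300.5 with GSK458, 652 with both drugs and 99.9 in the control, and SLC7A11 at 11.2, 0.448, 17.6 and 0.814 FPKM. The lowest with both drugs against As2O3 alone were PHGDH, the entry enzyme of serine synthesis (−3.24), ASNS, asparagine synthetase (−2.62), MTHFD2, a mitochondrial folate enzyme (−2.33), and SLC7A5 (−2.32). ASNS stood at 67.8 FPKM with As2O3, 8.41 with GSK458, 10.2 with both drugs and 16.1 in the control, so that both libraries with GSK458 were below the control, as they were for PHGDH (69.4, 5.87, 6.47 and 24.7 FPKM). SLC7A11 is also a known target of NRF2, and GDF15 of p53.

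Among 7 measured genes linked to CHOP, PMAIP1 (the death protein NOXA) alone was at least 2-fold higher with As2O3 than in the control (2.41), 1 of 7 where 2.07% of all genes were. It stood at 14.6 FPKM with As2O3, 0.953 with GSK458, 2.32 with both drugs and 1.95 in the control, high in the same library as DDIT3. With both drugs against As2O3 alone PMAIP1 (−2.24) and BBC3 (the death protein PUMA, −1.07) were 2-fold lower, 2 of 7 where 4.27% of all genes were. The death receptor gene TNFRSF10B stood at 105, 51.6, 55.4 and 55.6 FPKM in that order. Of 14 genes of the IRE1 and ATF6 branches, the arms of the ER stress response that do not act through eIF2α, ERN1 alone was 2-fold higher with As2O3 (1.06), and the list's median was −0.14. ERN1 encodes the sensor IRE1 and stood at 7.50 FPKM with As2O3 and 3.06 FPKM in the control. With GSK458 6 of the 14 lay 2-fold or more below the control (median −0.72), where 3.87% of all genes did. PDIA4 and HSPA5, ER folding proteins, had the largest differences with both drugs against As2O3, at −0.999 and −0.977, and HSPA5 stood at 158 FPKM with both drugs and 313 FPKM with As2O3.

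**Figure D5:**
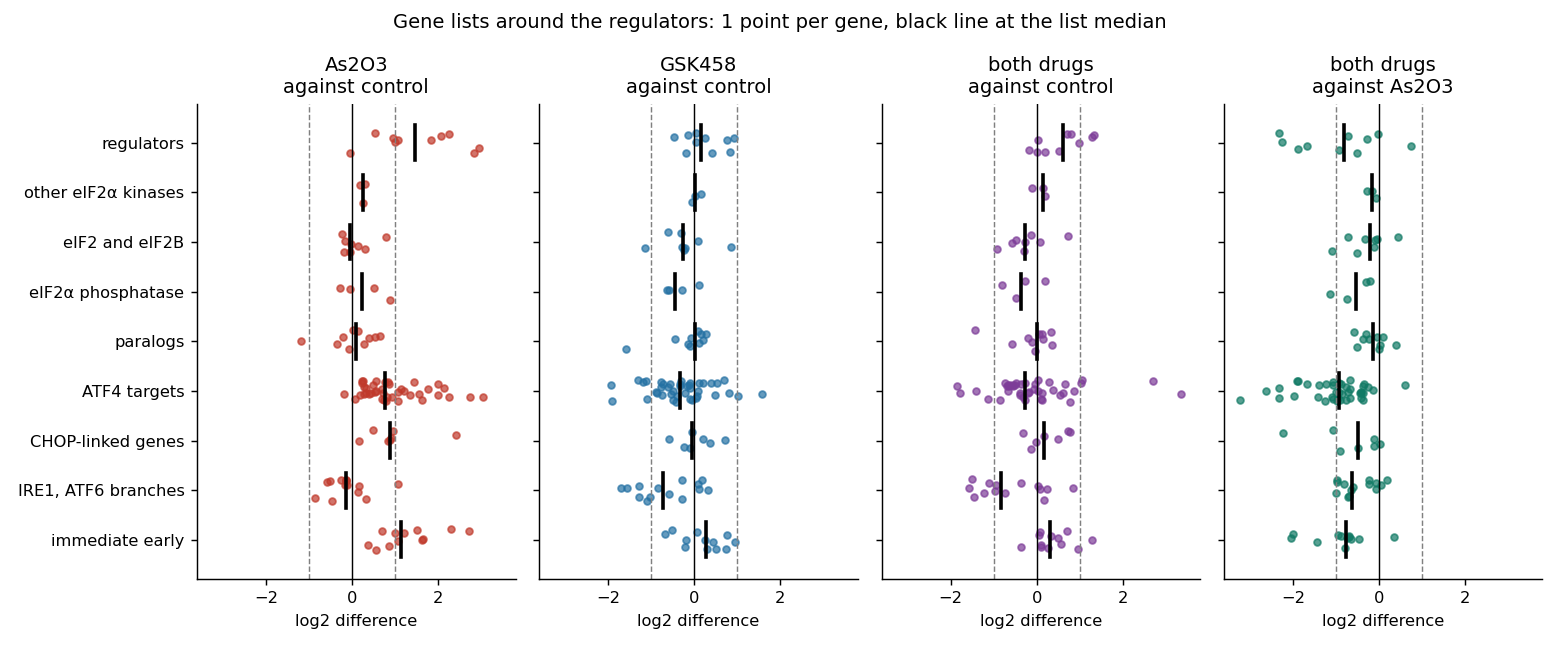
Log2 differences on the log2(FPKM + 1) scale (horizontal axis) of every measured gene in 9 lists, 1 point per gene from 1 library against another; black lines are list medians and dashed lines 2-fold. The regulators, ATF4 targets and immediate early genes lie to the right with As2O3 (medians 1.46, 0.77 and 1.14) and to the left for both drugs against As2O3 (−0.82, −0.92 and −0.77).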

How the data were processed

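The authors deposited 1 table of FPKM values for 26255 gene symbols, with 1 column per library. The submitters' processing notes name Cuffdiff 2.2.1, TopHat2 2.1.1, SAMtools 0.1.18, Bowtie2 2.2.8 and the build hg19, without the role of each. Libraries were made with a stranded poly(A) kit per the labels' protocols. The annotation, strand setting and treatment of multi-mapping reads are not given in these sources, so genes with copies or overlaps are uncertain. FPKM values keep no counts, so no counting interval was computed. Relative depth is the most frequent ratio among genes under 0.5 FPKM in the control.

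Values were used as deposited, with a pseudocount of 1 FPKM, a mean of at least 1 FPKM and a threshold of 2-fold, in Python 3.11.15 with numpy 2.4.6 and pandas 2.3.3. The difference code was tested on simulated data. No test was run, since each group has 1 library. The genes and lists were chosen with earlier results of these data known. Named are all regulators, every gene of lists of 6 or fewer, and up to 4 genes each way per longer list that were 2-fold apart with As2O3 or with both drugs against As2O3 (otherwise the 2 largest), with the 5 profiles nearest to ATF4 and DDIT3. TNFRSF10B, TRIB1 and the overlapping genes were named after their values were seen. Overlaps are those of exons in GENCODE release 29. One marker of the cell type list is not reported here.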

Additional observations from a re-analysis of the deposited data

Results flagged for a closer look

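Several regulators had opposite signs for the same drug without and with the other drug. Each sign rests on 1 library against 1 other, and the difference between the 2 effects was not tested. The share of all genes with opposite signs was not computed, so the counts below do not set the regulators apart. Of all genes 49.4% were above 0 for GSK458 against the control and 47.7% for both drugs against As2O3. These shares were 51.2% for As2O3 against the control and 50.5% for both drugs against GSK458. For GSK458 this held for 6 of 10 regulators. With As2O3 present, and then without it, the log2 differences for GSK458 were −2.32 and 0.24 for DDIT3, −1.66 and 0.76 for ATF3, and −0.92 and 0.05 for CEBPG. They were −0.51 and 0.05 for CEBPB, −0.27 and 0.93 for ATF4, and −0.017 and 0.83 for PPP1R15A. For As2O3 it held for 4 of 10. With GSK458 present, and then without it, the log2 differences for As2O3 were −0.13 and 1.07 for ATF4, −0.019 and 0.95 for CEBPG, −0.027 and 0.54 for EIF2AK3, and 0.29 and −0.05 for ATF5. With libraries rescaled to equal sums the signs were opposite for 3 of 10 regulators for GSK458 (ATF4, ATF3 and DDIT3) and for 2 of 10 for As2O3 (ATF4 and ATF5). CEBPB, CEBPG and PPP1R15A, and CEBPG and EIF2AK3, then had the same sign in both differences. Upper-quartile scaling left 5 for GSK458, without PPP1R15A, and 4 for As2O3. No pair has both differences beyond 2-fold.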

How the results depend on the processing

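No paired analysis was possible because each group has 1 library, and no library could be left out. In the 5 alternative settings that can move a single gene's value (pseudocounts and scalings), none of the regulators' differences that were at least 2-fold changed sign. Of 60 differences and departures 53 kept their sign, and the other 7 lay within 0.1 of 0. Over 8 settings, of 167 recomputed counts of regulators or ATF4 targets 151 were within 1.5 times the count reported. With As2O3 the count of 7 regulators ranged from 5 (equal sums) to 8 (0.1 FPKM pseudocount), and 5 to 6 departures were 2-fold below the sum. At 0.1 FPKM, 1 regulator was higher with GSK458. At 5 FPKM, 1 regulator was higher with both drugs than in the control and 0 than with GSK458, and ATF4 targets higher than the control were 1 with GSK458 and 2 with both drugs. With equal sums 1 ATF4 target was higher with GSK458. At a 1.5-fold threshold, 3 regulators were higher with GSK458, 5 with both drugs and 1 with both drugs than with As2O3. ATF4 targets were then 25 higher with As2O3, 4 higher and 13 lower with GSK458, 8 higher and 11 lower with both drugs, and 1 higher and 30 lower with both drugs than with As2O3. Of all 12260 genes at 1.5-fold, 911 were higher and 791 lower with As2O3, and 1056 higher and 1267 lower with GSK458. With both drugs 1217 were higher and 1429 lower than in the control, and 1160 higher and 1427 lower than with As2O3. Equal sums moved the median of all genes to −0.11 for GSK458 and 0.13 for the departure. They changed the split of all genes with As2O3 to 246 higher and 292 lower (254 and 173 as deposited) and that of departures to 351 above and 215 below (163 and 251). At 2-fold, all-gene counts spanned 138 to 380 higher and 50 to 349 lower with As2O3, 124 to 473 and 258 to 647 with GSK458, and 166 to 623 and 257 to 687 with both drugs. They spanned 69 to 584 and 276 to 693 with both drugs against As2O3, 37 to 170 and 15 to 100 against GSK458, and 44 to 385 and 111 to 396 for departures. The cause was not tested.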

Other observations

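Paralogs of the regulators differed in how far their levels ran beside those of the regulators. CHAC2, the paralog of CHAC1, stood at 1.46 FPKM with As2O3, 0.863 with GSK458, 1.09 with both drugs and 4.62 in the control, so all treated libraries were at least 2-fold lower on the log2(FPKM + 1) scale, while CHAC1 was highest with As2O3. PPP1R15B stood at 17.6, 7.30, 7.41 and 9.12 FPKM in this library order and was high in the As2O3 library alone, while PPP1R15A was above the control in all treated libraries. CEBPD, the C/EBP gene with the highest level in the control, stood at 88.2, 68.3, 62.0 and 93.1 FPKM, without the As2O3 gain of CEBPB and CEBPG. JDP2, a paralog of ATF3, stood at 10.2, 6.02, 6.56 and 6.79 FPKM and TRIB1, a paralog of TRIB3, at 34.7, 26.2, 28.2 and 21.7 FPKM, both highest with As2O3 like their regulators. Of 16 paralogs in a list that leaves out PPP1R15B, 10 passed the filter, and CHAC2 was the only one at least 2-fold apart with As2O3. Of all genes 1.41% were 2-fold lower with As2O3, as CHAC2 was, and 2.07% higher. JDP2 (−0.57) and CEBPD (−0.50) had the largest differences within that list with both drugs against As2O3 alone, and PPP1R15B, outside it, was at −1.14.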
